A study of Mus musculus with 6 samples.

Results

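The oligoadenylate synthetase (OAS) family was followed in macrophages grown from the bone marrow of mice that had breathed cigarette smoke or room air. The 8 members, Oas1a, Oas1b, Oas1c, Oas1g, Oas2, Oas3, Oasl1 and Oasl2, were chosen by their deposited group means and comparison, out of 19386 genes in the authors' deposited table. All 8 entered the authors' comparison and none was lost to its filter on low counts. Because the members were selected on the same comparison that is printed for them, its values are a description and carry no test of the family.

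All 6 libraries came from wild-type C57BL/6 mice, and every culture received medium with 10% L929 supernatant, a source of macrophage growth factor, until harvest on day 11. The first group was 3 libraries from mice kept in room air, and the second was 3 libraries from mice exposed to cigarette smoke. The descriptions of all 6 libraries also hold the tag ctl, to which no meaning was assigned here. Exposure was of the animal and not of the dish. The age of the mice, the length of exposure and the time between exposure and marrow harvest are not given in the sources used here, and the labels do not state outright that each library came from a separate mouse, so the spread between libraries may be in part technical. The comparison asks whether smoke exposure left a difference in these genes in macrophages differentiated afterwards.

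OAS enzymes are sensors of double-stranded RNA, a sign of viral replication. On binding it they join ATP into short chains called 2-5A, which act as a signal that sets off the decay of viral and cellular RNA. The genes are induced by type I interferon through the factor ISGF3, of which IRF9 is a subunit and which binds interferon-stimulated response elements in their promoters. The OAS-like members carry ubiquitin-like domains and act in part through other sensors and factors of the interferon response.

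The members lie on mouse chromosome 5, and positions are given on GRCm38 from GENCODE M21. Oasl2 (ENSMUSG00000029561.17, chr5:114896936-114912234) and Oasl1 (ENSMUSG00000041827.15, chr5:114923240-114937915) neighbour each other on the forward strand. In a second cluster Oas2 (ENSMUSG00000032690.16, chr5:120730333-120749853), Oas3 (ENSMUSG00000032661.9, chr5:120753098-120777661) and Oas1c (ENSMUSG00000001166.17, chr5:120800194-120812514) lie on the reverse strand. Oas1b (ENSMUSG00000029605.16, chr5:120812635-120824163) lies on the forward strand, and Oas1g (ENSMUSG00000066861.14, chr5:120876142-120887613) and Oas1a (ENSMUSG00000052776.10, chr5:120896256-120907521) on the reverse strand.

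Sequence is shown first for the promoters, since the response element is the site through which these genes are known to be induced. RefSeq promoter windows on GRCm38.p6, running from 250 bases before to 50 bases after the start, were found for 6 members: Oas1a, Oas1c, Oas1g, Oas3, Oasl1 and Oasl2. The motif searched was the core GAAANNGAAA on both strands. It was present in 4 of the 6 windows, and in 1131 of all 32851 windows of the table, or 3.44%. The stretches around the matches are given 5′ to 3′ on the strand of the gene, with the fixed bases of each match in capitals.
Oas1a, chr5:120907505-120907570: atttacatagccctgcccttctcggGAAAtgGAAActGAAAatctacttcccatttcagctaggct
Oas1g, chr5:120887591-120887656: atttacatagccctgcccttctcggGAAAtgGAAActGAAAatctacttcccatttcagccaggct
Oas3, chr5:120777700-120777759: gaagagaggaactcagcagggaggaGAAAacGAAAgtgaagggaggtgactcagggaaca
Oas1c, chr5:120812588-120812653: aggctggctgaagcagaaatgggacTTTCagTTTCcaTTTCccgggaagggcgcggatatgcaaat
In Oas1a the matches began at -20 and -14 from the start, and in Oas1g at -18 and -12. These are 2 matches per gene that share their middle GAAA. The printed stretches of Oas1a and Oas1g, 66 bases each, differed at 1 position, T61C, with Oas1a as the reference and positions counted from the 5′ end of the stretch. Oas3 held 1 match at -75. Oas1c held 2 overlapping matches on the opposite strand, at -114 and -108. In the windows of Oasl1 and Oasl2 these letters were not found. Oas1f and Oas1h, relatives outside the 8 members, had windows in the table and no match in them.

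Oas2, an interferon-induced synthetase, was the 1 member with a called difference, which means an adjusted p under 0.05 in the authors' comparison. The authors' deposited table gave a mean of 1086 normalized counts in room air and 737 after smoke. This is a log2 fold change of -0.56 with a standard error of 0.16 in the authors' deposited table, and an adjusted p of 0.0133 from DESeq2. Oas2 thus fell by 32.1% between the deposited group means. Of 12082 genes tested by the authors, 7.69% passed this threshold in the authors' deposited table, and 3.53% passed it with lower values after smoke; the members were chosen on this comparison, so nothing is read from their count of 1 in 8. The table holds group means and no value per library, so the overlap of single libraries could not be examined for expression.

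**Figure D1:**
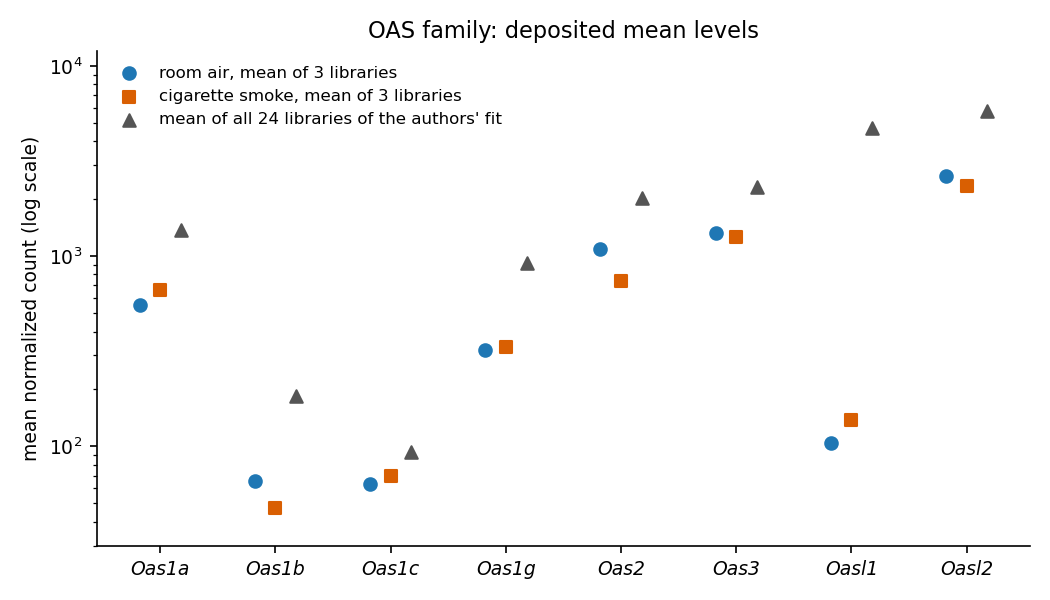
Deposited mean normalized counts of the 8 OAS genes on a log scale: the mean of 3 room air libraries (circles), of 3 smoke libraries (squares) and of all 24 libraries in the authors' fit (triangles). Oas2 goes from 1086 in room air to 737 after smoke, and the triangle of Oasl1, at 4704, stands far above its group means of 104 and 138.

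None of the other 7 members passed the threshold, 4 with positive and 3 with negative log2 fold changes. Oas1a, an active synthetase, had means of 552 in room air and 661 after smoke in the authors' deposited table, and the fold change on the log2 scale was 0.26 with a standard error of 0.13 and an adjusted p of 0.216 from DESeq2. Oas1b had means of 65.5 and 47.4 in the authors' deposited table, and the fold change on the log2 scale was -0.47, with a standard error of 0.24 and an adjusted p of 0.217 from DESeq2. These 2 values are opposite in sign and of sizes that their errors do not separate from 0 after adjustment over all genes.

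Oas1g, the closest paralog of Oas1a, had means of 321 in room air and 332 after smoke in the authors' deposited table, and the fold change on the log2 scale was 0.044, with a standard error of 0.17. Oas1c had means of 63.2 and 69.7 in the authors' deposited table, and the fold change on the log2 scale was 0.071 with a standard error of 0.19. The log2 ratio of these 2 means was 0.14, so the deposited estimate is not that ratio. Oas3, which makes long 2-5A chains, had means of 1323 and 1256 in the authors' deposited table, and the fold change on the log2 scale was -0.077, with a standard error of 0.12. The standard errors of these 3 genes were larger than their fold changes, and their adjusted p-values in the authors' deposited table, from DESeq2, were 0.923, 0.882 and 0.770.

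The OAS-like genes gave wider or intermediate errors. Oasl1, a negative regulator of IRF7 translation, had means of 104 in room air and 138 after smoke in the authors' deposited table, and the fold change on the log2 scale was 0.40, with a standard error of 0.41, the widest of the family. Oasl2 had means of 2633 and 2341 in the authors' deposited table, and the fold change on the log2 scale was -0.17 with a standard error of 0.16. Their adjusted p-values from DESeq2 in the authors' deposited table were 0.620 and 0.565. The family as a whole had a median log2 fold change of -0.017, beside -0.0029 over all tested genes.

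**Figure D2:**
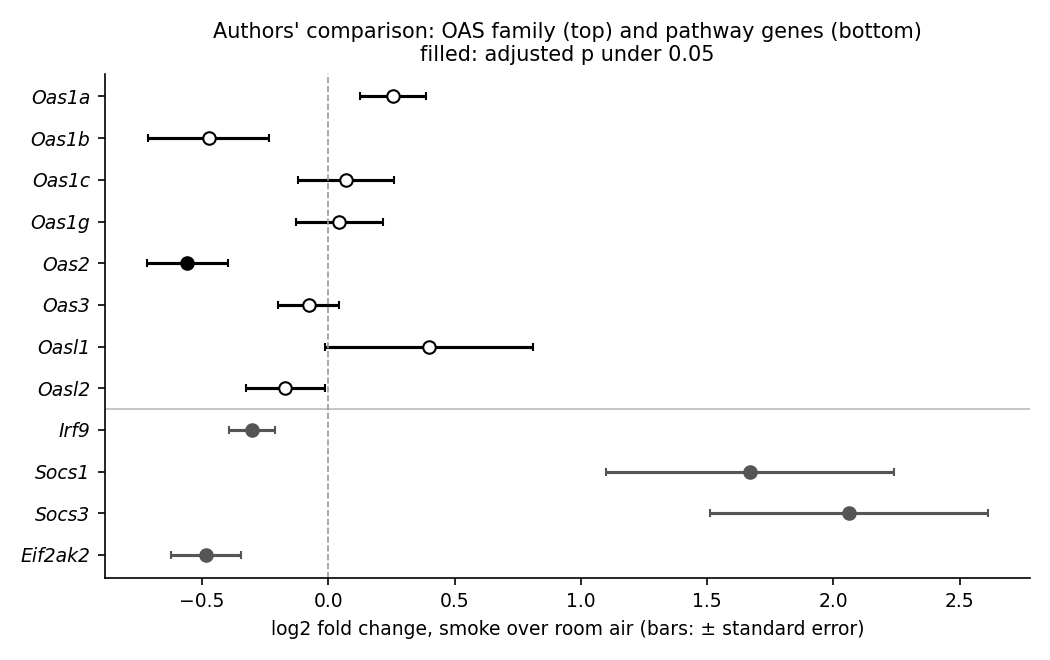
Log2 fold change of smoke over room air in the authors' comparison, with bars of ± 1 standard error, for the 8 OAS genes (top) and for the 4 called genes of the interferon list (bottom); filled points have an adjusted p under 0.05. Oas2, at -0.56, is the only filled point of the family, with 4 points to either side of 0.

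Fold changes in the authors' comparison moved with transcript composition over all tested genes, with a Spearman rho of 0.483 with GC content and of -0.448 with length, across genes that are not independent replicates. With that trend removed, Oas2 had a log2 fold change of -0.56 and an adjusted p of 0.0441, from the deposited DESeq2 standard errors. The values of Oas1c and Oas1g changed sign to -0.052 and -0.12, and 6 of the 8 members were then negative, beside 6342 of 12071 genes. Oas1a moved from 0.26 to 0.074 and Oasl1 from 0.40 to 0.15. With it removed 153 genes of the table were called.

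The authors' fit also held 18 libraries that are not analysed here, and the deposited mean over all 24 shows the members at other levels. Every member had a 24-library mean above the mean of the 6 libraries, as had 55.3% of all tested genes. The ratio was 38.9 for Oasl1, whose 24-library mean in the authors' deposited table was 4704, and by arithmetic the other 18 libraries averaged 6231. For Oas1b, with 183 over 24 libraries in the authors' deposited table, the ratio was 3.24, and for Oas1g, with 917, it was 2.81. The means over 24 libraries in the authors' deposited table were 5786 for Oasl2, 1367 for Oas1a, 2009 for Oas2, 2316 for Oas3 and 93.1 for Oas1c, and these are ratios of 2.33, 2.25, 2.20, 1.80 and 1.40. The median ratio was 2.29 over the members and 1.07 over all tested genes. It was 2.51 over the 32 listed genes of the interferon pathway list, of which 27 lay above 1. Oasl1 thus stood apart from the other 7 members in how far the 6 libraries lay below the rest of the authors' fit, which is a description without a test.

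Levels were compared between genes as normalized counts per kilobase of the longest GENCODE transcript. In room air Oasl2 stood first with 843 per kilobase. Oas1a with 293, Oas3 with 280 and Oas2 with 274 followed. How close these 3 lie depends on the length used: per kilobase of merged exons they were at 293, 187 and 244, and per kilobase of the shortest coding transcript at 293, 1834 and 1313. Oas1g came next with 162 per kilobase, and the lowest were Oasl1 with 47.7, Oas1b with 35.6 and Oas1c with 27.6. By the shortest coding transcript Oas1c stood at 152, above Oasl1 at 48.9 and Oas1b at 35.7. Oasl2 stayed first by each length, at 413 with merged exons and 4166 with the shortest coding transcript. After smoke, again by the longest transcript, the level of Oas2 was 186 per kilobase and kept its place in the order. Oas1b at 25.8 and Oas1c at 30.4 exchanged places. By the mean over 24 libraries Oasl1 came first, with 2157 per kilobase, before Oasl2 with 1853. Group means carry no spread between libraries, so neighbours in this order could not be tested against each other.

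The transcripts of Oas1a and Oas1g are near copies, which bears on both values. Their coding sequences of 1101 bases were 96.7% identical, and 57.6% of the 50-base windows of the Oas1a transcript also occurred in Oas1g transcripts. A read that lies wholly within shared sequence cannot be assigned to either gene by sequence. The share of such reads was not measured, so the separate levels of Oas1a and Oas1g are uncertain. For Oas1c 10.7% of windows were shared with another gene of the family, for Oas1b 1.34%, and for Oas2, Oas3, Oasl1 and Oasl2 none. Genes annotated over Oas1c (Gm43069), Oas2 (Gm43068) and Oasl1 (Gm13822) lie on the opposite strand and were not listed in the authors' deposited table. The libraries were made with a directional kit, but the strand setting of the count is not given in the sources used here.

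Oas1b is known for a reading frame that ends early in most laboratory mouse strains, and the reference used here, which is C57BL/6, has this form. In the transcript Oas1b-203 of GENCODE the annotated frame has 376 codons, of which codon 253, in exon 4, is a stop. The bases around it at chr5:120821308-120821310 on GRCm38 are shown because they interrupt the reading frame of this member, with the stop codon in capitals.
Oas1b-203: gcccagggcttcTGAaccgtcttggaa
After this stop 123 codons of the annotated frame remain. Expression values do not tell which protein is made.

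The rest of the family was at the lower limit. Oas1d had means of 0.509 and 0.0976 normalized counts in the authors' deposited table, and Oas1e was listed at 0 in room air and 0.411 after smoke there. Neither had an adjusted p. Oas1f and Oas1h were not listed.

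Other genes of the interferon pathway were read alongside. Of a list of 36, 32 were listed and 4 were called in the authors' deposited table, 2 higher and 2 lower, beside the 7.69% called among all tested genes. The median log2 fold change over the 32 was 0.0021, with 16 positive and 16 negative, beside -0.0029 over all tested genes.

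Among the ligands only Ifnb1, which encodes interferon beta, was listed, at 0.2 and 0.698 normalized counts in the authors' deposited table. Ifna2, Ifna4, Ifng and Ifnl2 were not listed. None of the 4 receptor genes and none of the 3 kinase genes was called. Of 8 transcription factor genes 1 was called: Irf9, the DNA-binding subunit of ISGF3, fell from 554 to 449 in the authors' deposited table, and the fold change on the log2 scale was -0.30 with a standard error of 0.091 and an adjusted p of 0.0200 from DESeq2.

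Eif2ak2, which encodes the double-stranded RNA-activated kinase PKR, fell from 705 to 503 in the authors' deposited table, and the fold change on the log2 scale was -0.48, with a standard error of 0.14 and an adjusted p of 0.0133 from DESeq2. It was the 1 called gene of the 5 listed as effectors and for 2-5A turnover, and none of the 7 genes of double-stranded RNA sensing was called. Among the 4 feedback genes, Socs1 and Socs3, which encode suppressors of cytokine signalling, rose. Socs1 went from 2.88 to 9.84 and had a log2 fold change of 1.67, a standard error of 0.57 and an adjusted p of 0.0457 from DESeq2 in the authors' deposited table. Socs3 went from 16.1 to 65.8 and had a log2 fold change of 2.06, a standard error of 0.55 and an adjusted p of 0.00734 from DESeq2 in the authors' deposited table. With the trend in GC content and length removed, none of these 4 genes was called, and each kept its sign: the log2 fold change of Irf9 was then -0.30 (adjusted p 0.0638), that of Socs3 1.79 (0.0692), that of Socs1 1.42 (0.232) and that of Eif2ak2 -0.32 (0.308), from the deposited DESeq2 standard errors.

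In bulk RNA, fewer cells of a type and less RNA per cell cannot be told apart, so cell markers were read beside these values. All 10 macrophage markers were listed, and the lowest of them had a mean of 375 normalized counts over the 6 libraries; 1 of the 10 was called in the authors' deposited table. Neutrophil markers were near 0, with 4 of 10 listed and summed means of 0.322 in room air and 0.508 after smoke. Of 6 plasmacytoid dendritic cell markers 4 were listed with a summed mean of 1654 and 1525, mostly Tcf4 and Bst2, which macrophages also express, while Ccr9 and Klk1 were not listed. Stromal markers, 6 of 6 listed, had a summed mean of 45.6 in room air and 8.10 after smoke, and none of the 6 was called in the authors' deposited table. Their part in the Oas2 value was not tested.

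By pattern, the genes most like Oas2 were Marf1, Xdh, RP24-328P2.5, Slx4ip and Ranbp2. Likeness was the distance on 2 axes, the log2 ratio of smoke to room air and the log2 ratio of the 24-library mean to the mean of the 6, and it was taken for 9280 genes whose mean reached 50 in either group. The distances of these 5 ran from 0.0183 for Marf1 to 0.0661 for Ranbp2. Of the other members Oasl2 was nearest, at rank 157, followed by Oas1b at 404, Oas3 at 416, Oas1g at 826, Oas1a at 1295 and Oas1c at 2041. Oasl1 was at rank 9257.

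Splicing was given per library as percent inclusion by JuncBASE, which sorts alternative splice choices into event types and counts the reads of each form. In all, 26 events lay within members: 11 in Oas2, 10 in Oas1g, 2 in Oas1a, 2 in Oas3 and 1 in Oasl2. They form 10 sets that share junctions, so events of 1 set are not independent. None was found in Oas1b, Oas1c and Oasl1. The number of reads behind each percent is unknown, and 11 of the 26 events had no value in smoke replicate 1. The rule for the members did not use these values, so they were tested, although the genes were proposed with results of these data known.

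By limma on the log2 odds of inclusion, 0 of the 26 events passed an adjusted p of 0.05, as did 0 of all 10376 events (0%). The lowest adjusted p of a member event was 0.198. On simulated levels this test recovered 0% of changes of 2 log2 odds, so the 0 calls do not show that inclusion was unchanged. At an unadjusted p under 0.05 there were 4 member events, in 3 linked sets, against 1125 events or 10.8% over the table. In the authors' deposited table the lowest corrected p of the 26 was 0.352. Inclusion was lower on average after smoke in 20 of 26 events, against 66.2% of all events. Of the 14 member events with all 6 values, 8 had every smoke library below every room air library, against 19.3% over the table, and 2 had every smoke library above, against 3.84%. These 10 events lie in 6 linked sets, and the shares are a description. The shares over the table are of events of every type, while the 8 include the 4 retained introns with all 6 values. Of all retained introns 89.9% had a lower mean after smoke.

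The events at intron 3 of Oas1g, chr5:120879333-120881884, showed the widest differences of the family in percentage points, though not in log2 odds. JuncBASE lists 3 donor forms for 1 acceptor here: the donor of the annotated transcript Oas1g-201, that of Oas1g-203, and a donor that is in no annotated transcript. Counted with exon reads, the Oas1g-201 donor had 23.9%, 29.6% and 27.1% in the room air libraries and 50%, 45.8% and 41.8% in the smoke libraries. Each smoke library lay above each room air library, at means of 26.8% ± 2.84 (SD, n = 3) and 45.9% ± 4.12 (SD, n = 3). The difference of 1.18 log2 odds had a standard error of 0.44 and an adjusted p of 0.413 by limma.

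The form with the unannotated donor, which would take 1092 further bases into the exon, mirrored this with 63.0%, 60% and 56.5% in room air and 37.5%, 41.7% and 45.1% after smoke. Each smoke library lay below each room air library. Its difference was -1.06 log2 odds, with a standard error of 0.44 and an adjusted p of 0.456 by limma. The Oas1g-203 donor had 13.3% ± 3.03 (SD, n = 3) in room air and 12.7% ± 0.398 (SD, n = 3) after smoke, and its groups overlapped. The 3 forms are shares of 1 total, so a higher share of one requires a lower share of another.

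Counted by junction reads alone, the same site looked different. The Oas1g-201 donor then had 78.6%, 79.1% and 76.7% in room air and 85.7%, 84.6% and 80.9% after smoke. Its groups still did not overlap, but the difference of 0.514 log2 odds had a standard error of 0.435 and an adjusted p of 0.623 by limma. The Oas1g-201 and Oas1g-203 donors left no share to the unannotated donor in 5 of the 6 libraries and 4.26% in room air replicate 2. The share of the unannotated donor with exon reads, 37.5% to 63.0%, was thus not matched by reads across its junction. Without smoke replicate 3, 1131 of the 10376 events passed the threshold, and 1 member event did, the Oas1g-201 donor with exon reads, at an adjusted p of 0.0473 by limma. Over its alternatives that adjusted p ran from 0.0473 to 0.609.

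The Oas1g-203 form extends exon 3 by 61 bases. Annotated as subject to nonsense-mediated decay, it meets a stop codon within the extension, as the sequence of chr5:120881837-120881896 on GRCm38 shows, which opens with the last 12 bases shared with Oas1g-201 and ends with the stop codon in capitals.
Oas1g-203: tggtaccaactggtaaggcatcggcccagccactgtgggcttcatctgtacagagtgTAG

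**Figure D3:**
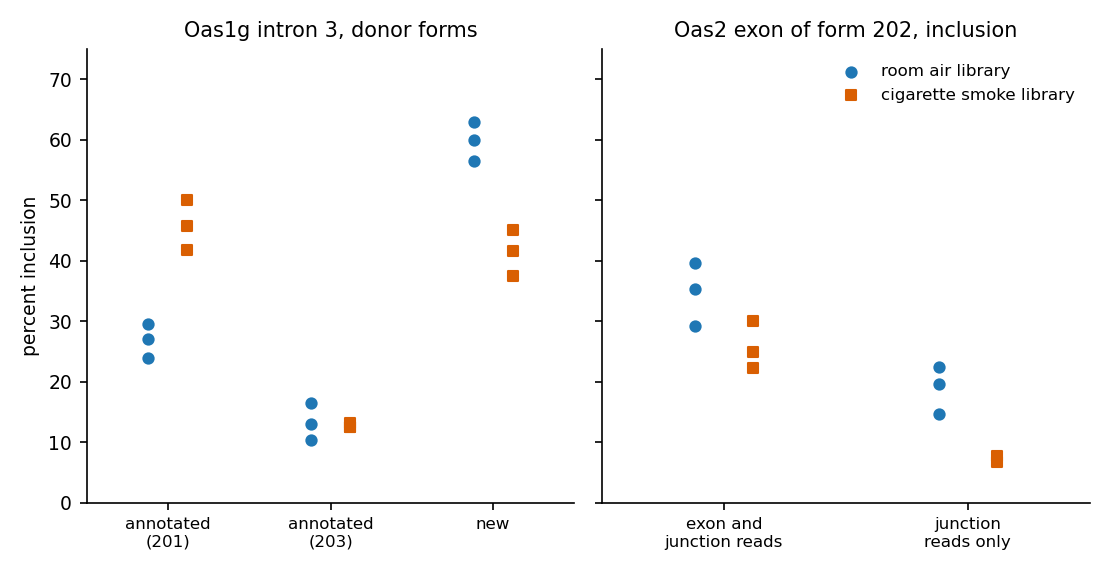
Percent inclusion in each library, circles for room air and squares for smoke. On the left are the 3 donor forms of Oas1g intron 3 counted with exon reads, where the Oas1g-201 donor is higher in all 3 smoke libraries and the unannotated donor lower; on the right is the alternative coding exon of Oas2, which has no value in smoke replicate 1 by junction reads only.

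Another Oas1g event had the lowest p of the family. An unannotated acceptor in intron 2, chr5:120882070-120885772, had inclusion levels of 5.00%, 1.82% and 2.94% in room air and 0% in each of the 3 libraries after smoke. The difference of -2.07 log2 odds had a standard error of 0.49 and an adjusted p of 0.198 by limma. By junction reads alone the same acceptor was at 5.00%, 0% and 0% in room air and at 0%, 0% and 1.89% after smoke, and the groups overlapped. A level of 0% at unknown depth does not show that the form was absent.

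In Oas2, the called member, the annotated alternative concerns the 3′ end of the coding sequence. An annotated long form of Oas2 contains an exon of 93 bases, chr5:120733137-120733229, that the other full-length form skips. With the exon the frame ends after 30 of its codons and a stop, and without it the frame ends after 21 codons of the last exon, so the 2 forms encode different C-terminal ends. The exon is shown on the strand of the gene, as GENCODE M21 has it, with its stop codon in capitals.
Oas2 exon: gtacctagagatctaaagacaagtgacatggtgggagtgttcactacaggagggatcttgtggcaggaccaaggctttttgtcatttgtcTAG

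By junction reads alone the splice into this exon had 14.7%, 19.6% and 22.5% in room air and 6.67% and 7.69% in smoke replicates 2 and 3, with no value in smoke replicate 1. Both smoke values lay below all room air values. The difference was -1.46 log2 odds with a standard error of 0.55 and an adjusted p of 0.425 by limma. With exon reads added, the levels were 29.3%, 39.7% and 35.4% in room air and 30%, 22.2% and 25% after smoke. Smoke replicate 1 then lay above the lowest room air library, the groups overlapped, and the adjusted p was 0.601 by limma. The splice out of the exon had 0%, 8.33% and 6.06% in room air by junction reads alone. It had 0% in smoke replicates 2 and 3 and no value in smoke replicate 1. These groups overlapped as well, and the adjusted p was 0.524 by limma.

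A second site in Oas2 was intron 3, chr5:120743284-120745676. An unannotated donor there had 70.9%, 74.8% and 75.8% in room air and 60%, 58.8% and 65.5% after smoke when exon reads were counted, with an adjusted p of 0.524 by limma. Each smoke library lay below each room air library. By junction reads alone it had 48.4%, 51.7% and 58.3% in room air and 41.7% and 57.5% in the 2 smoke libraries with a value, and the groups overlapped. Reads across its own junction thus gave this donor a share of at least 41.7% in each library with a value.

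Mean retention in percent was lower after smoke in all 8 retained introns of the family: 3 in Oas1g, 2 in Oas2 and 1 each in Oas1a, Oas3 and Oasl2. On the log2 odds scale intron 6 of Oas1g, with 2 smoke values, was the exception at 0.41 with a standard error of 1.16. Among all retained introns of the JuncBASE output 89.9% had a lower mean after smoke, so the direction is that of introns in general. Intron 3 of Oas1g had retention levels of 57.7%, 48.5% and 51.1% in room air and 29.4%, 45.0% and 36.7% after smoke. Intron 3 of Oas1a, chr5:120899306-120901869, the intron at the same place in its paralog, had 16.9%, 20.9% and 14.2% in room air and 6.06%, 13.7% and 8.12% after smoke. In both introns each smoke library lay below each room air library, and their adjusted p-values by limma were 0.524 and 0.509.

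Intron 3 of Oas2 was retained at 51.5%, 56.7% and 57.1% in room air and at 41.7% and 44.4% in smoke replicates 2 and 3. Intron 3 of Oasl2, chr5:114901416-114904831, had 7.09%, 9.73% and 7.01% in room air and 4.84%, 2.90% and 3.92% after smoke. Intron 15 of Oas3, chr5:120754376-120754555, had 6.38%, 4.29% and 5.17% in room air and 0%, 3.57% and 3.70% after smoke. An exon of a shorter annotated Oas3 transcript spans this intron, so its retained form is itself annotated. The groups did not overlap in these 3 introns, and the adjusted p-values by limma were 0.606, 0.490 and 0.537.

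**Figure D4:**
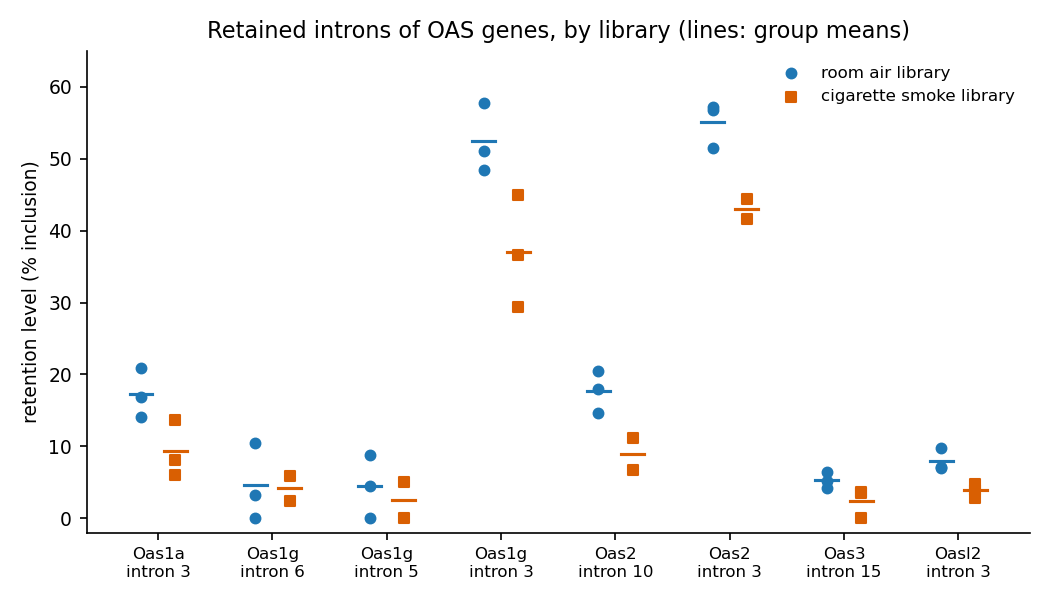
Retention level in percent inclusion of the 8 retained introns of OAS genes, with a point for each library with a value (circles room air, squares smoke) and lines at the group means. The points of intron 3 of Oas1g run from 29.4% to 57.7%, and those of introns 5 and 6 of Oas1g overlap between groups.

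Over the 4 introns with all 6 values, in Oas1a, Oas1g, Oas3 and Oasl2, retention averaged 22%, 20.8% and 19.3% in the room air libraries and 10.1%, 16.3% and 13.1% after smoke. This is 20.7% ± 1.33 (SD, n = 3) in room air against 13.2% ± 3.11 (SD, n = 3) after smoke, or a change of -7.57 points in the percent retained. The change was -15.4 points for the intron of Oas1g and -7.99 for that of Oas1a, against -4.06 for Oasl2 and -2.86 for Oas3, and over the 2 of them retained at 10% or more on average it was -11.7 points. Those 2 are the introns of Oas1g and Oas1a, which lie at the same place in near copies. Whether they share reads was not tested. Over all 1992 introns with 6 values the level was 15.7% ± 0.978 (SD, n = 3) in room air and 11.4% ± 1.28 (SD, n = 3) after smoke, a change of -4.23 points. In both sets every smoke library lay below every room air library. The gap between the OAS introns and all introns was 6.44, 4.14 and 4.60 points in room air and -0.19, 5.05 and 0.30 points after smoke, and these ranges overlapped. No p is given, since 3 libraries against 3 cannot go below 0.1 in an exact permutation test.

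**Figure D5:**
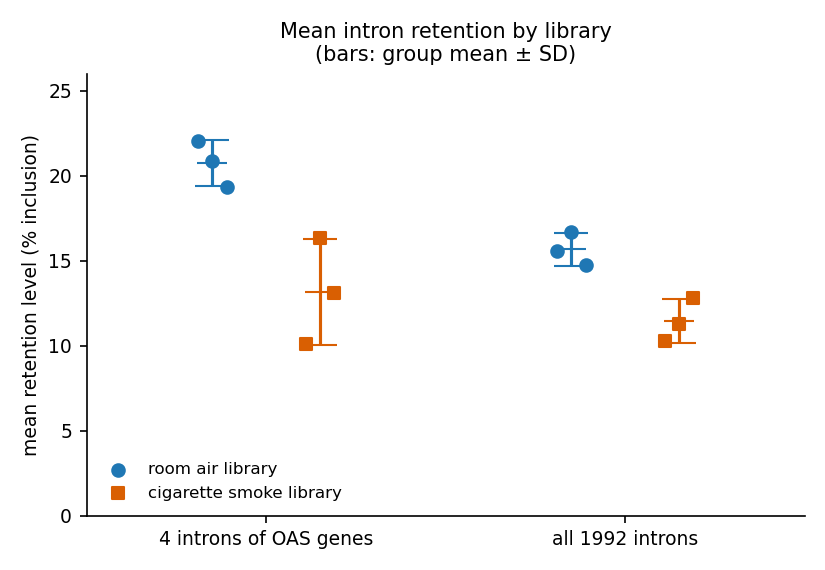
Mean retention level per library in percent inclusion, for the 4 introns of OAS genes and all 1992 introns with a value in every library, with bars at the group mean ± SD over 3 libraries. In both sets the 3 smoke libraries (squares) lie below the 3 room air libraries (circles), at group means of 13.2% against 20.7% for the OAS introns.

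A second program, rMATS, had listed 5 introns of the family in the authors' deposited table, and none of them was among the JuncBASE introns. Of these 1 had a false discovery rate under 0.05, against 14.5% of all 3887 introns in that table. It was the intron after the alternative exon of Oas2, chr5:120731959-120733136, with a false discovery rate of 0.0371 and a difference of 1.5 percentage points between sample sets in the authors' deposited table. The other introns, 2 in Oas2, 1 in Oas1b and 1 in Oasl1, had false discovery rates from 0.764 to 1.00 in the authors' deposited table. The table does not name its 2 sample sets, so no direction is given.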

How the data were processed

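Percent inclusion, expression and intron tables were used as deposited by the authors. The signal values in the authors' gene table are means of size-factor-normalized counts per group and over 24 libraries, per the file headers. Its fold changes and standard errors are on a log2 scale, and its p-values are the authors' own, from a fit that included 18 libraries not analysed here, whose spread entered the standard errors. The percent values, an inclusion level for each event in each library, come from the JuncBASE table deposited by the authors. The authors' rMATS table gives p-values and false discovery rates, and 6 of its columns of per-sample values were not used. The submitters' processing notes name STAR, DESeq2, SAMtools 1.9, bedtools 2.27.1 and mm10.

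Groups came from the sample titles. Inclusion percent p was turned into log2((p + 1)/(100 - p + 1)) and fitted over all 10376 events with limma 3.58.1 in R 4.3.3, with Benjamini-Hochberg adjustment over all events. On simulated levels with 200 of 10376 events changed, this recovered 0% of changes of 2 log2 odds, 43% of 4 and 82.5% of 8. The GC and length trend was fitted with natural splines (statsmodels 0.14.6, patsy 1.0.2); on simulated fold changes for 12071 genes, 92.0% of 200 changes of 2 on the log2 scale were recovered. Positions and transcripts came from GENCODE M21 on GRCm38: its introns included all exclusion junctions of 98.7% of the 6001 events that JuncBASE marked known. Coding sequences were aligned with Biopython 1.88. No depth per library was available to these steps.

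By rule the named genes were the members, other Oas genes, called genes of the pathway list, overlapping neighbours and the 5 genes most like Oas2; a further gene named by that rule, not a member, is not reported here. The ligand genes and single cell markers were named after their values were seen. Members and lists were chosen with earlier results of these data known.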

Additional observations from a re-analysis of the deposited data

How the results depend on the processing

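With an adjusted p of 0.0133 from DESeq2, Oas2 passes 0.1 by definition, and 0 members passed an adjusted p under 0.01. It was also called with adjustment over every gene with a p-value and with the GC and length trend removed. The same held with the median subtracted and with a minimum mean of 50. These settings reuse the comparison on which the members were chosen, so they are a description and no test. With the trend removed, Oas1c reversed to -0.052 and Oas1g to -0.12 on the log2 scale, and the other 30 of 32 alternative fold changes kept their sign. The order per kilobase kept 6 of 8 places with merged exon length and 2 with the shortest coding transcript. The rMATS intron of Oas2 was lost at a false discovery rate under 0.01 (0 left) and with a minimum difference of 10 points (0 left).

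Member JuncBASE events past the threshold were 0 under 10 of 11 alternatives and, leaving out each library in turn, 0 to 1, the 1 without smoke replicate 3; over all events the linear scale gave 5 calls, events with all 6 values 23, and leaving out smoke replicate 3 gave 1131. The cause was not tested. The mean difference in retention was -11.7 points over the 2 introns with a level of at least 10%, -6.70 over 8 introns with at least 2 values per group, and -9.14 to -6.03 leaving out each library. The replicate numbers did not pair the libraries: deviations of same-numbered libraries had correlations of 0.018, -0.04 and -0.089. With the replicate number as a block, 0 member events passed the threshold and the retention difference was -7.57 points. The promoter count was 3 of 6 with a following C, 6 with 1 mismatch and 4 in the 250 bases before the start, beside 0.819%, 35.4% and 2.98% of all 32851 windows. Read depth per event is unknown and limits every splicing value.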

Other observations

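The authors' merged transcript assembly holds more forms of the members than GENCODE M21 does. For Oasl2 it has 20 transcript models against 9 annotated transcripts, for Oasl1 15 against 6, for Oas2 11 against 4 and for Oas1a 9 against 1. Introns were matched to the annotation within 1 base at the exon start, where the assembly is a base lower in part of its models. Of 18 distinct introns assembled within Oas2, 6 were not annotated, and of 11 within Oas1a, 5 were not.

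A single assembled model joins Oas1g to Oas1a. Its 7 exons run from chr5:120876142 to 120907521, with 4 exons in Oas1g and 3 in Oas1a. The switch falls in intron 3 of both genes, where the retention and donor values of Oas1g were described. Whether this model is a molecule or comes from reads shared by the 2 near-identical genes was not tested.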
